A study of Macaca mulatta with 2 samples.

Results

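The genes described here encode the core proteins of the brain's hyaluronan matrix, which includes the perineuronal net. They are the lecticans ACAN, BCAN, NCAN and VCAN, the hyaluronan link proteins HAPLN1, HAPLN2 and HAPLN4, and the tenascins TNR and TNC. They were chosen by symbol, and all 9 were found among the 33618 genes of the count table. The table came from RNA sequencing of prefrontal cortex from infant rhesus macaques, 1 untreated control and 1 exposed to sevoflurane, each labelled as 28 days old. By the labels, treated animals inhaled about 2.5 to 3% sevoflurane for 4 h at each of 3 exposures, the first on about postnatal day 7. The labels and the paper's results place the later exposures on days 14 and 28, and the paper's methods place them later. The methods have the tissue taken immediately after the third exposure and do not describe how the control macaques were handled. The paper describes 3 animals per group, of which the others were not analysed here. With 1 library per group there are no replicates, so the values compare these 2 libraries and not the conditions, and no p-value is given.

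In the perineuronal net, long hyaluronan chains leave the cell surface and carry the lecticans, a family of chondroitin sulfate proteoglycans. Link proteins lock the head of each lectican onto hyaluronan, and tenascins join the tails of several lecticans. Nets form after birth, mostly around fast-spiking interneurons that contain parvalbumin, as the juvenile matrix of the brain is replaced by the adult one and cortical circuits become less plastic.

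Reads on genes numbered 16960880 (control) and 9839105 (sevoflurane). Levels are given as CPM, that is, counts scaled to library size with TMM factors. The log2 ratio of sevoflurane over control carries a 95% interval that covers counting error only, since the variation between animals cannot be seen. The ratio was computed where 1 library or both reached 1 CPM, which was so for 18050 genes, and its median over them was -0.0048. Markers of neurons and of each glial class had reads in both libraries, with 998 and 914 CPM for the cortical glutamate transporter gene SLC17A7. SLC17A7 was picked out after its values were seen. The 7 Y-linked genes looked up held 3 reads in the control against 4308 in the sevoflurane sample, so animal, sex and exposure cannot be told apart. In such tissue RNA, fewer cells of a type and less RNA per cell cannot be told apart either. Transcript lengths were not used here, so levels per length were not compared between genes, and a gene said to have the most reads of a list was read most without regard to its length.

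The 9 matrix genes did not differ in one direction. Intervals excluded equal expression in the downward direction for TNC, BCAN, VCAN, NCAN and HAPLN1, and in the upward direction for ACAN and HAPLN4. That is 5 genes lower and 2 higher, where 28.1% of all tested genes were lower and 28.4% higher by the same criterion. Intervals are narrower for genes with more reads. The 9 genes and the lists below were not matched to all tested genes by reads. The intervals of HAPLN2 and TNR held equal expression. TNC was the only one of the 9 at least 2-fold lower, against 5.47% of tested genes, and 0 of the 9 were at least 2-fold higher, against 7.56%. With a limit of 1.5-fold, 2 of the 9 were higher and 1 lower, against 14.4% and 11.9% of tested genes. The median log2 ratio of the 9 genes was -0.32.

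**Figure D1:**
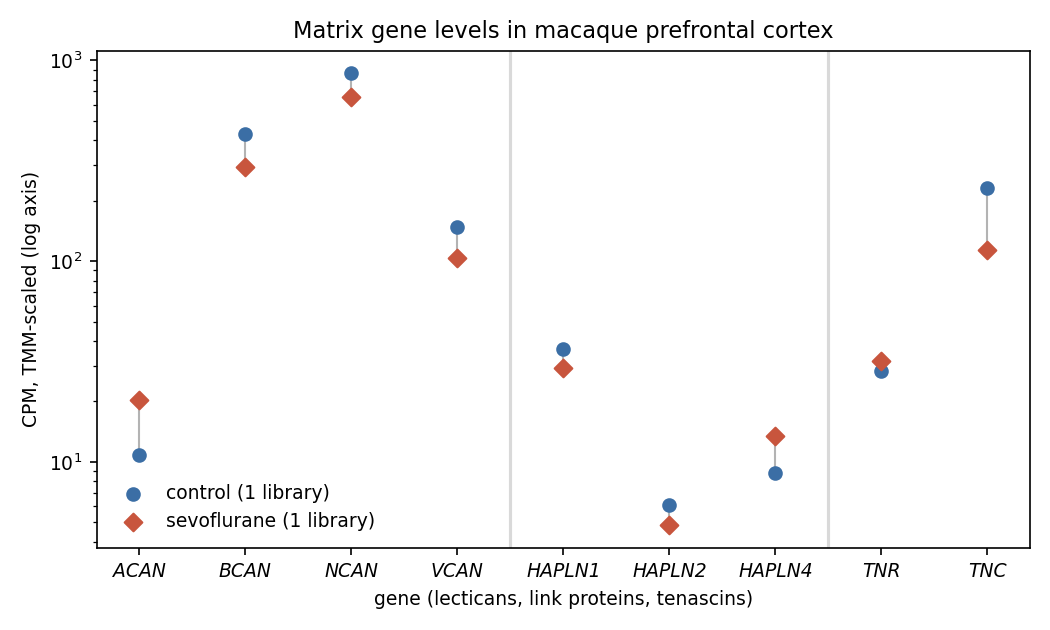
Level of each matrix gene in CPM on a log axis, with a circle for the control library and a diamond for the sevoflurane library. Only the 2 points of 1 gene can be compared, because reads were not divided by transcript length. The diamond lies above the circle for ACAN, HAPLN4 and TNR and below it for the other 6 genes.

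Among the lecticans, ACAN stood apart from the rest. ACAN encodes aggrecan, the lectican most closely tied to perineuronal nets. The control library had 181 of its reads and the sevoflurane library, though less deep, had 201, or 10.8 and 20.2 CPM. Its log2 ratio was 0.90 (95% interval 0.61 to 1.21), which put the sevoflurane level at 188% of the control level. Of the tested genes, 9.23% had a ratio at least as high.

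BCAN, NCAN and VCAN were all lower in the sevoflurane library, and their ratios lay close together. BCAN encodes brevican, a brain-specific lectican made largely by astrocytes. It had 7179 control and 2921 sevoflurane reads, or 427 and 294 CPM (log2 ratio -0.54, interval -0.60 to -0.48). NCAN encodes neurocan, which is abundant in the developing brain and declines towards adulthood. It had 14473 and 6535 reads, or 861 and 658 CPM, and its log2 ratio was -0.39 (interval -0.43 to -0.35). VCAN encodes versican, a lectican of the early brain that cells of the oligodendrocyte lineage also make. Its 2480 and 1033 reads came to 148 and 104 CPM, with a log2 ratio of -0.50 (interval -0.61 to -0.40). The interval of BCAN lay within that of VCAN. Counts per gene do not separate the splice forms of versican, so it is not known which form the reads came from.

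The make-up of the lectican reads differed by far the most for ACAN in relative terms. Neurocan took 59.5% of lectican reads in the control (exact binomial 95% interval 58.9 to 60.1%) against 61.1% in the sevoflurane sample (60.2 to 62.1%). Brevican took 29.5% (29.0 to 30.1%) and 27.3% (26.5 to 28.2%), a slightly smaller share, and versican 10.2% (9.82 to 10.6%) and 9.66% (9.11 to 10.2%). Aggrecan took 0.744% (0.640 to 0.861%) and 1.88% (1.63 to 2.16%), so these intervals were far apart. These are shares of reads, and longer transcripts give more reads, but the length of a transcript cancels when the same share is compared between libraries. The shares also do not depend on how the libraries were scaled. The number of ACAN reads per BCAN read was 2.73 times as high in the sevoflurane library (95% interval 2.21 to 3.37), whereas that of NCAN reads per BCAN read was 1.11 times as high (1.05 to 1.17).

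**Figure D2:**
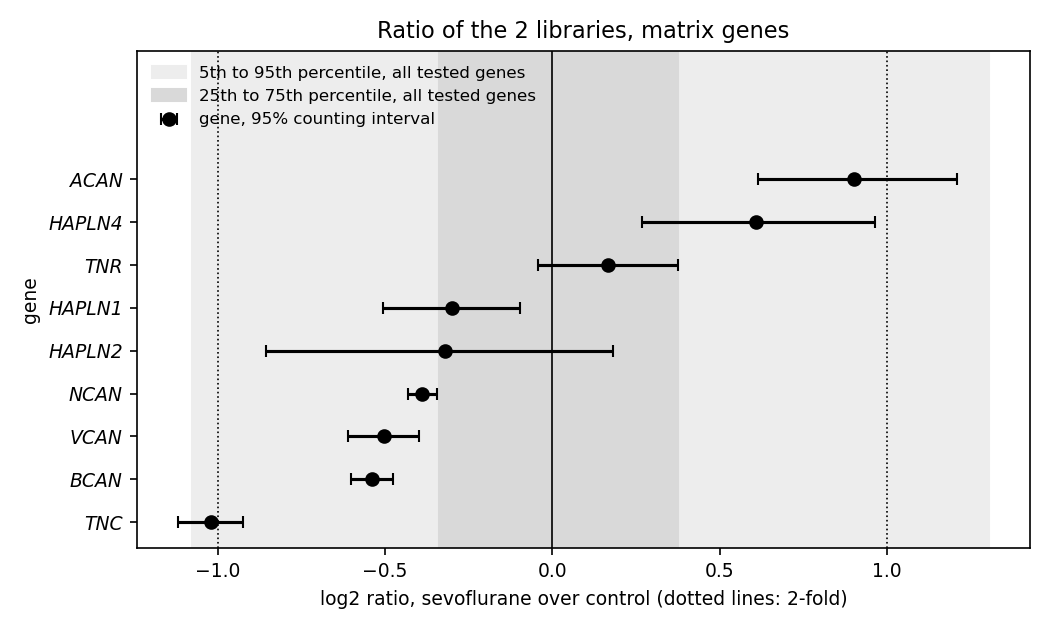
Log2 ratio of sevoflurane over control for each matrix gene, with its 95% counting interval, over the central 50% and 90% of all tested genes in grey. ACAN and HAPLN4 lie above 0, TNC lies at the 2-fold line on the low side, and the intervals of TNR and HAPLN2 cross 0.

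The link proteins also differed among themselves. HAPLN4, also called brain link protein 2, is enriched around inhibitory synapses and nets. It had 148 control and 134 sevoflurane reads, or 8.81 and 13.5 CPM. Its log2 ratio was 0.61 (interval 0.27 to 0.96), the second highest of the 9 genes after ACAN. HAPLN1, the cartilage link protein that neurons use to assemble nets, went the other way. It had 611 and 293 reads, or 36.4 and 29.5 CPM, with a log2 ratio of -0.30 (interval -0.51 to -0.10). HAPLN2, the brain link protein of myelinated axons that sits with versican at nodes of Ranvier, had the fewest reads of the 9 genes. Its 102 and 48 reads gave 6.07 and 4.83 CPM, and its log2 ratio of -0.32 could not be distinguished from equal expression (interval -0.85 to 0.18).

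Within the link protein reads, HAPLN4 took a larger share and HAPLN1 a smaller share in the sevoflurane library. The share of HAPLN4 was 17.2% (14.7 to 19.9%) in the control against 28.2% (24.2 to 32.5%) in the sevoflurane sample. HAPLN1 took 71.0% (67.8 to 74.0%) and 61.7% (57.1 to 66.1%). The interval of HAPLN2 overlapped between the libraries, at 11.8% and 10.1%. The number of ACAN reads per HAPLN1 read was 2.32 times as high in the sevoflurane library (1.80 to 2.98), but that of ACAN reads per HAPLN4 read differed by less than counting error (1.23 times, 0.891 to 1.69). ACAN thus stood apart from HAPLN1, whose product it assembles with, while a difference from HAPLN4 was not detectable at this depth.

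Each link protein gene lies beside a lectican gene. In the RefSeq table of the macaque assembly MMU8v2.0, 0 protein-coding genes lay between VCAN and HAPLN1, between BCAN and HAPLN2, between NCAN and HAPLN4, or between ACAN and HAPLN3, and the spans of no pair overlapped. HAPLN3 is the remaining link protein gene and is not one of the 9. VCAN and HAPLN1 were both lower, at -0.50 and -0.30, and the ratio of their reads differed by less than counting error (1.15 times, 0.980 to 1.35). BCAN at -0.54 and HAPLN2 at -0.32 lay likewise (1.16 times, 0.801 to 1.65). NCAN and HAPLN4 lay apart, since HAPLN4 reads per NCAN read were 2.01 times as high in the sevoflurane library (1.57 to 2.56). ACAN at 0.90 and HAPLN3 at -0.38 also had opposite signs, but HAPLN3 had 71 and 32 reads and its interval held equal expression (-1.04 to 0.23).

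**Figure D3:**
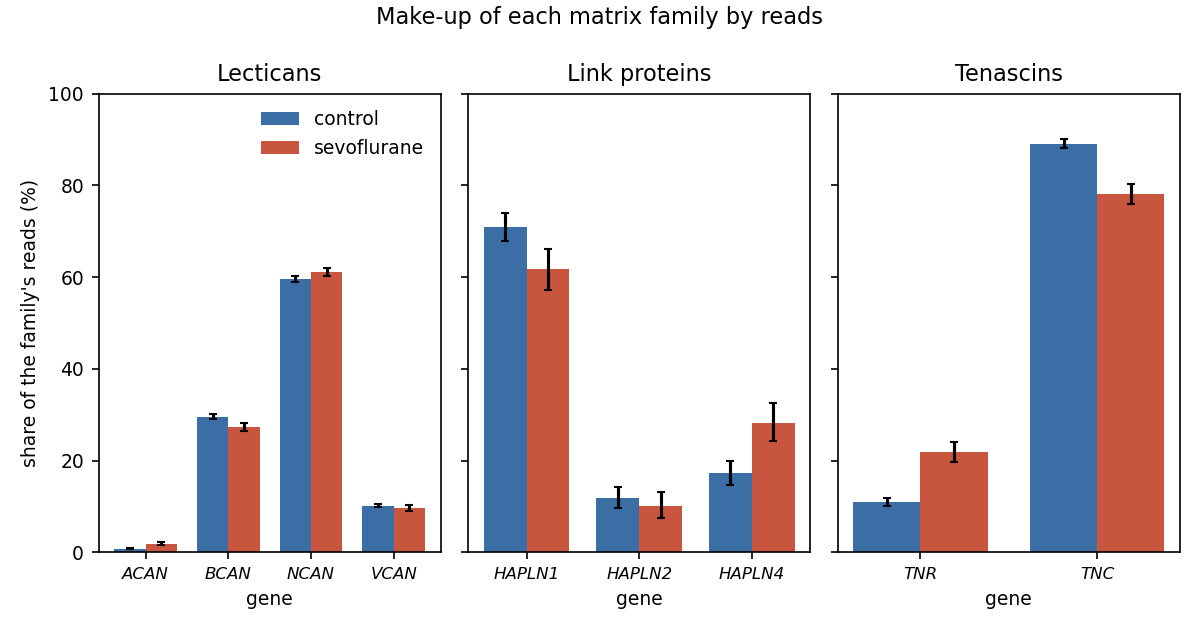
Share of reads that each gene took within the lecticans, link proteins and tenascins, in percent, with exact binomial 95% intervals as error bars and 1 bar per library. The shares of ACAN, HAPLN4 and TNR were higher in the sevoflurane library and those of HAPLN1 and TNC lower.

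The tenascins also differed from each other. TNC encodes tenascin-C, a matrix protein of progenitor zones and of young astrocytes that is largely replaced as the cortex matures. Its 3869 control and 1126 sevoflurane reads came to 230.2 and 113 CPM. The log2 ratio was -1.02 (interval -1.12 to -0.93), so the sevoflurane level was 49.2% of the control level. Of the tested genes, 5.57% had a ratio as low. This value sits on the 2-fold limit, and with library totals in place of TMM it was -0.99 and no longer counted.

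TNR encodes tenascin-R, the tenascin of the mature net that cross-links aggrecan. It had 475 control and 315 sevoflurane reads, or 28.3 and 31.7 CPM, and its log2 ratio of 0.17 was not distinguishable from equal expression (interval -0.04 to 0.37). TNR took 10.9% of the tenascin reads in the control (10.0 to 11.9%) against 21.9% in the sevoflurane sample (19.8 to 24.1%). The number of TNR reads per TNC read was 2.28 times as high (1.94 to 2.67), through the lower level of TNC. The number of ACAN reads per TNR read was 1.67 times as high (1.30 to 2.16), so the gene of the cross-linker did not differ as much as that of aggrecan.

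Summed over the 9 genes, the level was 1757 CPM in the control against 1269 CPM in the sevoflurane sample. NCAN alone took 49.0% and 51.8% of these reads, BCAN 24.3% and 23.2%, and TNC 13.1% and 8.93%. The sum thus mainly followed NCAN and BCAN, and the lower level of TNC also lowered it.

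Markers of the cells that make these components differed between the libraries, and not all in one direction. Of 8 markers of net-bearing fast-spiking interneurons and related inhibitory cells, 1 was at least 2-fold higher and 0 were lower. Of all tested genes, 7.56% were higher and 5.47% lower by this criterion. The median log2 ratio of the 8 markers was -0.25. The higher gene was PVALB, which encodes parvalbumin and had 68 reads against 221 in the sevoflurane library (4.05 and 22.3 CPM, log2 ratio 2.42, interval 2.06 to 2.87). KCNC1, which encodes a fast potassium channel of these cells, was higher at 0.74 (interval 0.56 to 0.92). GAD1, the gene of a GABA-synthesizing enzyme and the one with the most reads of this list, was slightly lower at -0.23 (interval -0.31 to -0.16). The summed level of the list was 872 CPM in the control against 733 CPM in the sevoflurane sample. ACAN and HAPLN4 were higher, as were PVALB and KCNC1, the only 2 of the 8 markers with intervals above equal expression. The intervals of 5 lay below it, those of GAD1, KCNC2 (-0.58), SST (-0.35), GAD2 (-0.30) and ERBB4 (-0.27). That of LHX6 held it (0.00). Of all tested genes, 28.4% had intervals above equal expression and 28.1% had intervals below it. KCNC2, SST, GAD2, ERBB4 and LHX6 were picked out after their values were seen. PVALB differed more than ACAN or HAPLN4. ACAN reads per PVALB read were 0.342 times (0.240 to 0.485) and HAPLN4 reads per PVALB read 0.279 times (0.191 to 0.405) those of the control library. The part of these cells in the ACAN and HAPLN4 values was not tested.

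Most astrocyte markers and all markers of the oligodendrocyte lineage were lower in the sevoflurane library. Of 8 astrocyte markers, 2 were at least 2-fold lower and 0 higher, against 5.47% and 7.56% of all tested genes. Their median was -0.48, and their summed level was 6618 CPM in the control against 4604 CPM in the sevoflurane sample. GFAP (-1.35) and AQP4 (-1.38) were lower by more than TNC, and SLC1A2, the glutamate transporter gene with the most reads of the list, by less (-0.37). SLC1A3 was the only astrocyte marker with an interval above equal expression, at 0.27 (interval 0.24 to 0.31), and the interval of S100B held equal expression, and these genes were picked out after their values were seen. Of 6 oligodendrocyte precursor markers, 1 was at least 2-fold lower and all 6 intervals lay below equal expression. Of all tested genes, 5.47% were at least 2-fold lower and 28.1% had intervals below equal expression. The 6 markers had a median of -0.36 and summed levels of 468 and 329 CPM. The marker at least 2-fold lower was GPR17 (-1.29), while the precursor receptor gene PDGFRA (-0.40) and OLIG1 (-0.47) lay near VCAN. Of 10 genes of myelinating oligodendrocytes, 8 were at least 2-fold lower, against 5.47% of all tested genes. Their median was -1.26, with summed levels of 4255 and 2066 CPM. MOG (-1.90) and OPALIN (-1.62) were the lowest of them. The part of glial cells in the BCAN, VCAN and TNC values was not tested. The median of 7 neuron markers was -0.13, with RBFOX3 at 0.83, NEFL at -0.56 and SYT1 at -0.40, and their summed levels were 5164 and 4525 CPM.

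**Figure D4:**
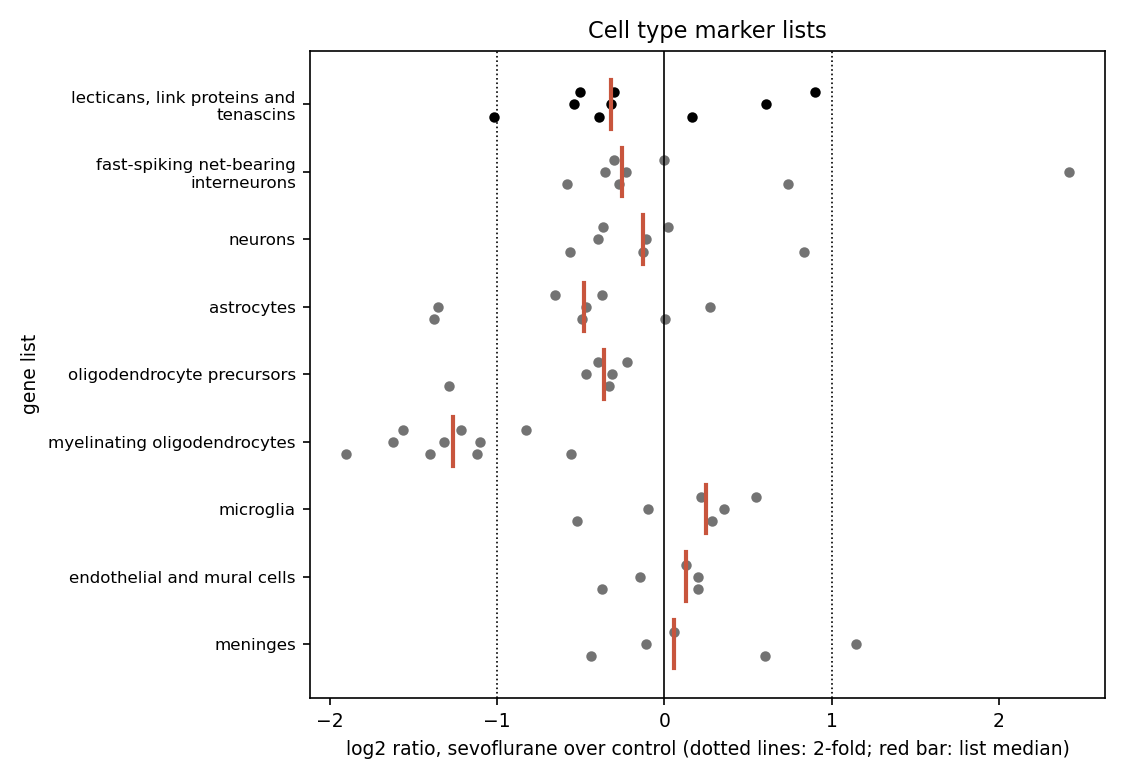
Log2 ratio of each tested gene in the cell type marker lists, with the 9 matrix genes at the top and a red bar at the median of each list. PVALB lies far to the right of the other interneuron markers, and the myelinating oligodendrocyte genes lie lowest, with a median of -1.26.

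Markers of the other cells that the tissue could hold were also read out. The 6 microglia markers had a median of 0.25, with C1QA at 0.55, P2RY12 at -0.52 and CSF1R at 0.22, and summed levels of 214 CPM in both libraries. The 5 endothelial and mural markers had a median of 0.13, with RGS5 at 0.20 and FLT1 at -0.37, and summed levels of 397 and 425 CPM. The 5 meningeal markers had a median of 0.06 and summed levels of 209 and 349 CPM, with COL1A1 at 1.14 and COL1A2 at 0.60. Of the choroid plexus markers, TTR had 2 control and 31 sevoflurane reads, KCNJ13 had 3 and 28, and CLIC6 had 126 and 20. The defining marker TTR was thus close to 0 in the control library and low in the sevoflurane library.

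The genes whose products build, clear or bind hyaluronan, the backbone of the net, differed in both directions. All 10 genes of this list were in the table and 8 of them reached 1 CPM. Of these 8, 1 was at least 2-fold higher and 2 were lower, against 7.56% and 5.47% of all tested genes, and the median was -0.38. With library totals 1 was lower, since HAS2 lies at the limit. CD44, the cell surface receptor of hyaluronan, had 172 control and 25 sevoflurane reads (-1.96, interval -2.69 to -1.41). CEMIP, which takes part in the breakdown of hyaluronan, had 22 and 54 reads (1.94, interval 1.31 to 2.84). TMEM2, the gene of a cell surface hyaluronidase, was lower at -0.70 (interval -0.88 to -0.54) and had the most reads of the list. The following genes, like HAPLN3 above, were picked out after their values were seen. The hyaluronan synthase gene HAS2, with 54 and 15 reads, was at -1.02 (interval -2.02 to -0.24), and HAS3 was at -0.39 (interval -0.69 to -0.10). HAS1 had 0 reads in both libraries. The hyaluronidase genes HYAL1 (0.60) and HYAL2 (0.35) were higher by intervals that excluded equal expression.

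Lecticans can carry chondroitin sulfate chains. Of 12 genes that start or lengthen these chains, 0 were at least 2-fold higher or lower, against 7.56% and 5.47% of all tested genes. Their median was -0.14. With a filter of 1 read, which alters the TMM factors, 1 was lower. XYLT1, the xylosyltransferase that starts a chain, came closest, with 4536 control and 1359 sevoflurane reads, a log2 ratio of -0.98 (interval -1.07 to -0.89) and the most reads of the list. CHSY3, a chain polymerase, was at -0.64 (interval -0.99 to -0.31). Of the 9 tested sulfotransferase and epimerase genes, 1 was at least 2-fold lower, against 5.47% of tested genes, and 0 were higher, against 7.56%. Their median was -0.29. The lower gene was DSEL, a dermatan sulfate epimerase-like gene with 1975 and 393 reads (-1.57, interval -1.73 to -1.41).

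The position of the sulfate is known to shift from carbon 6 to carbon 4 of the chain as nets mature, so the enzymes of both positions were read out. The 6-sulfotransferase gene CHST3 had 94 control and 33 sevoflurane reads and was lower (-0.73, interval -1.37 to -0.17). The 4-sulfotransferase gene CHST11 had 91 and 83 reads and was higher (0.61, interval 0.18 to 1.07). CHST12, a 4-sulfotransferase gene with more reads (291 and 204), had an interval that held equal expression (0.24, -0.02 to 0.51), and CHST13 had 0 reads in both libraries. CHST14, a sulfotransferase gene of the same list, had 44 and 18 reads, and its interval held equal expression (-0.50, -1.41 to 0.29). CHST7, another 6-sulfotransferase gene, was higher at 0.78 (interval 0.33 to 1.25), so the 6-sulfotransferases did not lie on one side. CHST3, CHST11, CHST12, CHST13 and CHST14 were picked out after their values were seen, while CHST7 was named by the rule for the list.

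Of 15 tested proteases that cut lecticans and protease inhibitors, 1 was at least 2-fold higher and 1 lower. Of all tested genes, 7.56% were higher and 5.47% lower by this criterion, and the median of the list was -0.0030. The lower gene was ADAMTS4, which encodes an aggrecanase that cleaves aggrecan and brevican, and which had 616 control and 128 sevoflurane reads (-1.50, interval -1.79 to -1.23). The higher gene was the inhibitor gene TIMP1, with 27 and 42 reads (1.32, interval 0.66 to 2.15). TIMP2, the gene with the most reads of the list, was lower at -0.78 (interval -0.84 to -0.72).

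Other chondroitin sulfate proteoglycans of the brain differed by less than 2-fold. Of 8 tested, 0 were at least 2-fold higher or lower, against 7.56% and 5.47% of all tested genes. Their median of 0.02 lay close to that of all tested genes. The list includes PTPRZ1, whose low count is described at the end. SPOCK1, a testican with the most reads of the list, was at -0.04 (interval -0.10 to 0.01). CSPG4, the NG2 proteoglycan of oligodendrocyte precursors, was at -0.22 (interval -0.38 to -0.07), and the small leucine-rich proteoglycan gene BGN at 0.59 (interval 0.40 to 0.79).

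Receptors and ligands that act at nets were listed as 16 genes, of which 14 were tested. Of these, 0 were at least 2-fold higher or lower, against 7.56% and 5.47% of all tested genes. Their median was -0.19. With a filter of 1 read, 1 of the 16 was lower. This was SEMA3A, with 8 control and 0 sevoflurane reads, which is not among the 14 tested genes. SEMA3A was picked out after its values were seen. RTN4RL1, the gene of a Nogo receptor family member that binds chondroitin sulfate, had 1699 control and 1970 sevoflurane reads (0.97, interval 0.88 to 1.07). NRP1, a receptor of semaphorin 3A, was lower at -0.85 (interval -1.01 to -0.70). NPTXR, a neuronal pentraxin receptor gene with the most reads of the list, was at -0.29 (interval -0.32 to -0.27).

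HAPLN2 and versican act at nodes of Ranvier, and the genes of 7 tested partners at the node had a median of -0.05. Of these, 0 were at least 2-fold higher or lower, against 7.56% and 5.47% of all tested genes. SPTBN4, the spectrin of the node, was higher at 0.73 (interval 0.66 to 0.79), CNTN2 was lower at -0.51 (interval -0.59 to -0.42), and NRCAM, with the most reads of the list, was at 0.00 (interval -0.04 to 0.04). ANK3, the ankyrin of the node, was listed at 0 reads in both libraries. It was picked out after its value was seen, and since neurons generally use this gene, a low count in this table may not show a low level.

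**Figure D5:**
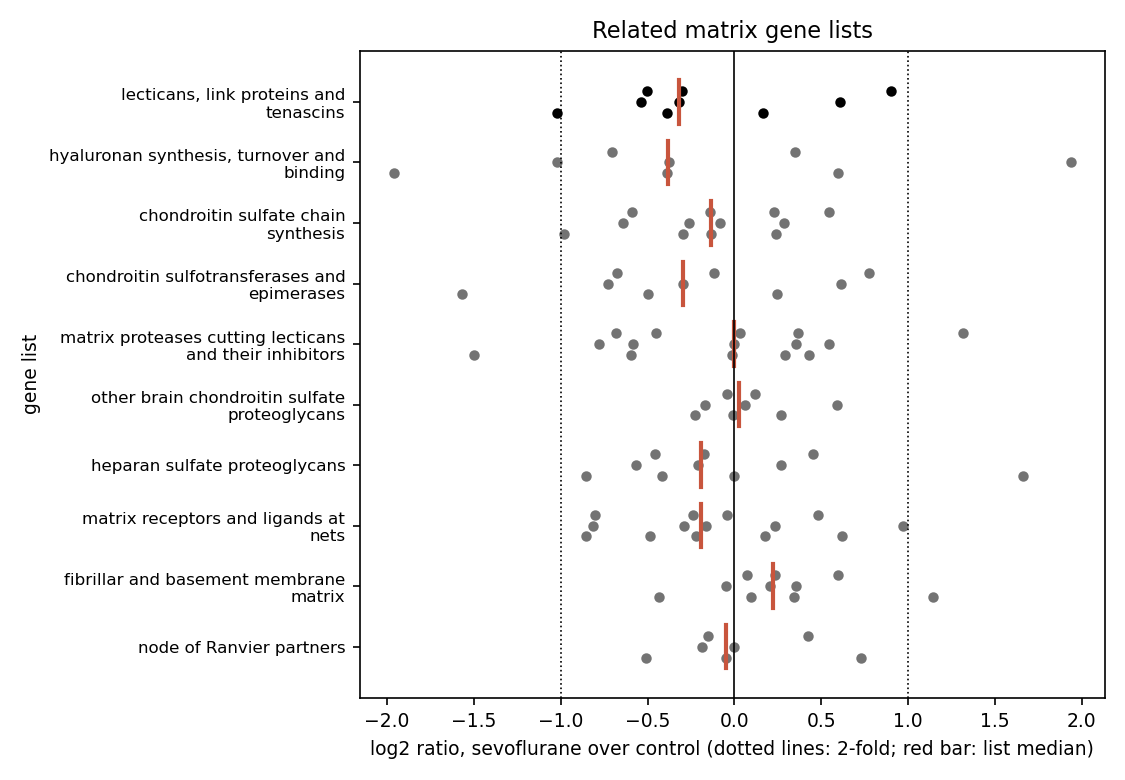
Log2 ratio of each tested gene in the lists of related matrix genes, with the 9 matrix genes at the top and a red bar at the median of each list. CD44 and CEMIP mark the ends of the hyaluronan list at -1.96 and 1.94, and the other chondroitin sulfate proteoglycans all lie between -0.22 and 0.59.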

How the data were processed

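The libraries were of prefrontal cortex RNA, 1 from a control macaque and 1 from a macaque exposed to sevoflurane. Raw counts per gene, whole numbers that were not normalized, were deposited as 1 table with 1 column per library. The submitters' processing notes name HISAT2 2.0.4, and the counting tool, genome build, annotation and use of strand are not given in the sources used here. Counts were scaled with edgeR 4.0.16 in R 4.3.3, by TMM factors of 0.991 and 1.01 computed on genes that reached 1 CPM in 1 library or both, and log2 ratios used a prior count of 2. Intervals are exact Clopper-Pearson limits, and for the ratio of reads of 2 genes the conditional limits of the odds ratio. They cover counting error only. A gene counted as higher or lower at 2-fold with a 95% interval excluding equal expression. With 1 library per group, no quasi-likelihood fit in edgeR was possible. The procedure was tested on simulated data.

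The genes and lists were chosen with earlier results of these data known. The lists were of hyaluronan, chondroitin sulfate, protease, proteoglycan, receptor, fibrillar matrix and node genes and cell type markers. From each list the text names the gene with the highest mean CPM, not divided by length, and the 2 with the largest log2 ratios in size, provided their mean reached 1 CPM and their interval left out equal expression. An item that this rule covers is not reported. Genes outside it are said to be picked out after their values were seen. The gene order came from RefSeq, in which all 9 symbols were found. No sequences were used here. Plots were drawn with matplotlib 3.10.9 in Python 3.11.15. As alternatives, scaling by library totals, by upper quartile or by size factors of DESeq2 1.42.0 was tried, with a prior count of 0.5, a filter of 1 read, the control library sampled down, 1.5-fold and a 99.9% interval.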

Additional observations from a re-analysis of the deposited data

How the results depend on the processing

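Each of the 9 log2 ratios kept its sign under all 7 alternatives that could move it, and 59 of 63 values stayed within the counting interval. ACAN ranged from 0.88 to 1.05, HAPLN4 from 0.59 to 0.76, TNC from -1.04 to -0.87 and the median of the 9 genes from -0.36 to -0.17. With library totals, 0 of the 9 genes were at least 2-fold lower, because TNC lies at the limit. GAPDH reads as the reference, chosen after seeing the data, shifted the median of all tested genes to 0.15, moved BCAN to -0.38, NCAN to -0.23, VCAN to -0.35 and TNC to -0.87, and left 1 gene (ACAN) at least 2-fold higher and 0 lower. The shares of all tested genes at 2-fold are not given for the GAPDH reference, so these counts have no background. With TMM and a limit of 1.5-fold, 2 of the 9 were higher, against 14.4% of all tested genes. In the lists of related genes, 14 of 126 counts moved by over 1.5 times, 11 of them with the 1.5-fold limit. In 1 draw of the control library at the lower depth, HAPLN2, with 102 control reads at full depth, moved most, to -0.02. Levels per kb of transcript were not run, since transcript lengths were not used here, and shares are of reads for the same reason. No paired analysis was possible because only 1 library stands for each group, and for the same reason no replicate could be left out.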

Other observations

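Matrix outside the net was read out as well. Of 10 genes of fibrillar and basement membrane matrix, 1 was at least 2-fold higher and 0 were lower, against 7.56% and 5.47% of all tested genes. The median was 0.22, and 6 of the 10 intervals lay above equal expression, against 28.4% of those of all tested genes. Intervals are narrower for genes with more reads, and the list was not matched to the tested genes by reads. The fibrillar collagen genes COL1A1 (1307 reads against 1708 in the sevoflurane library, log2 ratio 1.14, interval 1.04 to 1.25) and COL1A2 (0.60, interval 0.49 to 0.71) were highest, and the fibronectin gene FN1, with the most reads of the list, was at -0.05 (interval -0.11 to 0.02). COL1A1 and COL1A2 are also on the list of meningeal markers, of which DCN, LUM and COL3A1 had intervals that held equal expression. DCN, LUM and COL3A1 were picked out after their values were seen. Of 10 tested heparan sulfate proteoglycan genes, 1 was at least 2-fold higher and 0 were lower, against the same 7.56% and 5.47%. Their median was -0.19. SDC1 had 9 and 20 reads (1.66, interval 0.71 to 3.23), the glypican gene GPC6 was at -0.85 (interval -1.22 to -0.52), and AGRN, the gene of agrin and the one with the most reads of the list, was at -0.00 (interval -0.05 to 0.04).

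PTPRZ1, the gene of phosphacan and a major proteoglycan of glia, had 143 control reads and 84 sevoflurane reads (interval of the log2 ratio -0.42 to 0.39). It was picked out after its values were seen, and as with ANK3, its low count in this table is not read as a low level.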
